A study of Homo sapiens with 27 samples.

Results

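The 70 genes described here had more mRNA in macrophage-like THP-1 cells given lipopolysaccharide (LPS), and more again when the glucocorticoid dexamethasone (Dex) was given with it. They were chosen on the RNA-seq counts alone, from 20453 genes. Group means in CPM (counts of a gene scaled to a library of 1 M, with TMM-adjusted library sizes), with 0.5 added, had to reach an LPS over vehicle ratio of 2 (met by 1043 genes) and an LPS+Dex over LPS ratio of 1.5 (981 genes), and the LPS+Dex mean had to reach 5 CPM (9700 genes). All 3 were met by 77 genes. KLF7, DUSP1, FKBP5, SLC7A2, MT2A, CSF3 and KLF2 were left out by name. The rule sets aside the DUSP, metallothionein, SLC and KLF families and some single genes, here FKBP5 and CSF3. THP-1 is a human leukaemia cell line of monocytic origin. Every culture was differentiated with phorbol 12-myristate 13-acetate (PMA) at 10 ng/ml for 24 h and then kept for 3 h with vehicle, with 100 ng/ml LPS, or with LPS and 1 µM Dex. There were 5 ribosome footprint libraries (Ribo-seq) and 4 RNA-seq libraries per treatment, the RNA coming from the same cells as the footprints. No group received Dex without LPS, so the Dex step is known only on top of LPS, and 1 cell line stands for all macrophages here. The labels do not say whether replicates were separate cultures, so the p-values speak for the spread among these libraries alone, which may be technical.

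LPS, a component of Gram-negative bacterial walls, is sensed by TLR4, which activates NF-kB and AP-1 and switches on cytokine genes together with their own inhibitors. Dexamethasone binds the glucocorticoid receptor, a transcription factor that represses many of those cytokine genes and raises others by binding DNA at pairs of hexamers. Glucocorticoids are best known in macrophages for damping inflammation, but some genes respond to both signals in the same direction, among them inhibitors of TLR signalling. Ribosome footprints are the mRNA stretches that ribosomes protect from nuclease, so their counts follow translation, and they were not used to choose the genes.

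Footprint libraries held 11.5 to 26.1 M counts and RNA libraries 19.0 to 30.7 M. Of 16 monocyte and macrophage markers, 15 were above 1 CPM in every RNA library and MRC1 was below it. The summed level of the 16 was 7755 to 8042 CPM with vehicle, 6041 to 6495 with LPS and 6096 to 6150 with LPS+Dex. Among 18 markers of other blood lineages, 14 were below 1 CPM in every RNA library, and HBB and HBA1 were at 0. Their sum was 305 to 460 CPM with vehicle, 173 to 222 with LPS and 199 to 237 with LPS+Dex, mostly from PECAM1 and ELANE. In these bulk samples more cells of a type and more RNA per cell cannot be told apart. The 3 footprint libraries numbered 4, 1 per treatment, stood apart from the rest of their groups, and counts below are given with and without them.

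**Figure D1:**
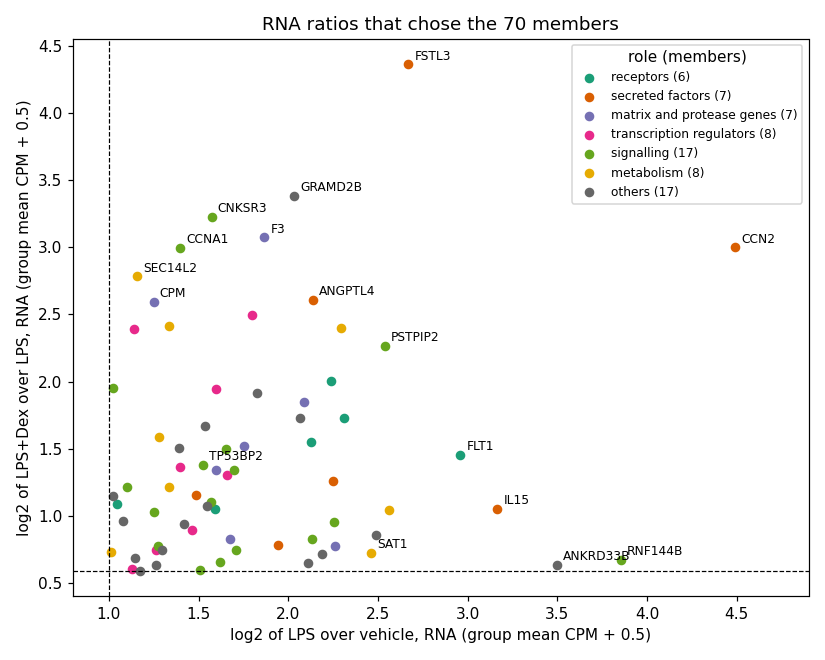
RNA ratios of the 70 genes, LPS over vehicle on the horizontal axis and LPS+Dex over LPS on the vertical axis, both as log2 of group mean CPM + 0.5 (n = 4 libraries per group). Points are genes coloured by role, and the dashed lines mark the 2 ratio thresholds that chose them. FSTL3 stands highest (20.6 times with Dex) and CCN2 farthest to the right (22.5 times with LPS).

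The members' summed RNA level was 1261 ± 59.0 CPM with vehicle, 4038 ± 234 with LPS and 9953 ± 145 with LPS+Dex (SD, n = 4), which the rule fixed and which carries no test. Their summed footprint level was 1127 ± 268, 3597 ± 1302 and 12065 ± 4885 CPM (SD, n = 5). Most of that footprint SD came from the libraries numbered 4, with 1606, 5890 and 20799 CPM against 982 to 1031, 2864 to 3412 and 9759 to 10137 in the others. With and without them the 3 groups of footprint sums kept apart, no vehicle library reaching any LPS library and no LPS library reaching any LPS+Dex library.

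In footprints, 62 of the 69 members tested rose with LPS and 55 rose further with LPS+Dex. The background was 25.4% of 12197 genes called higher with LPS and 9.08% called higher with LPS+Dex over LPS (edgeR quasi-likelihood test, adjusted p under 0.05). The 2 steps share the LPS libraries. The footprints also come from the same cells as the RNA that chose the members. Shares above the background are therefore not an independent test of the choice. LPS+Dex stood above vehicle in 68 members, where 24.4% of all genes did. No member was called lower in any of these comparisons, and no member's log2 fold change was negative. Of all genes, 27.2% were called lower with LPS and 7.99% with LPS+Dex over LPS. At an unadjusted p under 0.05 the counts of members were 67, 62 and 69. The share of all genes at that unadjusted p was not counted, so nothing is read from these counts. The median footprint log2 fold change was 1.67 with LPS and 1.35 with LPS+Dex over LPS, against -0.04 and 0.02 for all genes tested. OR2B11 was the member that did not pass the filter on low counts. Members with few vehicle footprints could pass that filter through their treated libraries alone. Of the 53 members with at least 10 counts in every vehicle footprint library, 48 rose with LPS and 45 with LPS+Dex over LPS.

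Without the libraries numbered 4, 68 of 68 tested members were called higher with LPS (31.5% of all genes) and 65 with LPS+Dex over LPS (16.2%). Blocking on the replicate number, which compares libraries of equal number, gave 68 and 65 calls of 69, beside 31.8% and 16.1% of all genes. Every LPS footprint library lay above every vehicle library in 54 members (19.6% of all genes), and every LPS+Dex library above every LPS library in 52 (7.33%). The 3 thresholds of the rule, applied to footprint CPM in place of RNA, were met by 43 of the 70 members and by 0.347% of all genes. In RNA all 70 members were called in both steps, beside 28.6% and 15.5% of all genes, and nothing is read from this because RNA chose them.

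**Figure D2:**
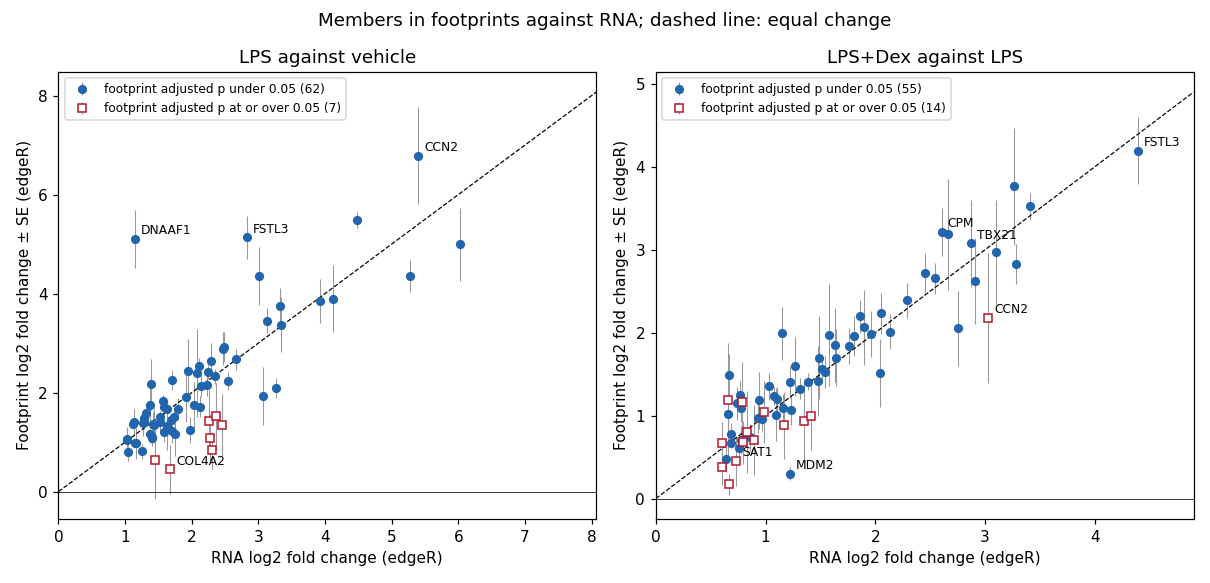
Footprint log2 fold change (vertical, ± SE, n = 5 libraries per group) against RNA log2 fold change (horizontal, n = 4) for the 69 members tested in footprints. The left panel shows LPS against vehicle and the right panel LPS+Dex against LPS. Filled points passed the footprint test (62 and 55), open squares did not, and the dashed line marks equal change; no point lies below 0.

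Footprint changes followed the RNA changes across members. Over the 69 genes Pearson's r between the 2 log2 fold changes was 0.787 with LPS and 0.924 with LPS+Dex over LPS, and 0.800 and 0.951 without the libraries numbered 4. Genes are not independent replicates, and the values share cells, so these are descriptions. The change in footprints relative to mRNA, or translational efficiency, had a median of -0.004 on the log2 scale with LPS (35 of 69 negative) and 0.04 with LPS+Dex over LPS (30 of 69 negative), against 0.02 and 0.04 for all genes. It carries no test here because RNA chose the members.

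Secreted factors numbered 7: FSTL3, PTX3, CCN2, ANGPTL4, IL15, EDN1 and PDGFB. In footprints 6 rose with LPS and 5 rose further with LPS+Dex, and all 7 did both without the libraries numbered 4. FSTL3 (ENSG00000070404, chr19:676392-683385), which binds and neutralises activin, had the largest RNA ratio of Dex, 20.6, after an LPS ratio of 6.36. Its RNA was 3.99, 3.55, 3.27 and 4.18 CPM with vehicle, 17.6, 20.8, 22.6 and 44.9 with LPS and 528, 545, 565 and 586 with LPS+Dex. Footprints were 1.27, 2.02, 1.43, 2.2 and 1.19 CPM with vehicle, 37.1, 32.4, 28.2, 108 and 73.8 with LPS and 877, 786, 864, 1751 and 853 with LPS+Dex. No groups overlapped in either assay, while LPS RNA replicate 4 stood above the other LPS libraries and footprint replicate 4 was highest with LPS and LPS+Dex. In footprints it rose by 5.14 ± 0.44 (log2 ± SE) with LPS (adjusted p = 1.7e-07) and by 4.19 ± 0.40 with LPS+Dex over LPS (adjusted p = 2.8e-06).

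CCN2 (chr6:131948176-131951372), a matrix-associated regulator of adhesion and fibrosis, had the largest LPS ratio in RNA, 22.5, and a Dex ratio of 8. Its RNA was 0.42, 0.454, 0.607 and 0.588 CPM with vehicle, 19.4, 16.7, 23.9 and 29.5 with LPS and 195, 183, 179 and 174 with LPS+Dex. The 3 RNA groups lay apart. Footprints were 2.97, 3.27, 3.5, 6.6 and 2.37 CPM with vehicle, 105, 106, 112, 1525 and 164 with LPS and 1162, 1065, 1008, 4815 and 1107 with LPS+Dex. Replicate 4 with LPS exceeded all LPS+Dex libraries but that of its own number, so these groups overlapped. With LPS the footprints rose by 6.79 ± 0.98 (adjusted p = 3.7e-05), and by 5.33 ± 0.14 without the libraries numbered 4. The LPS+Dex over LPS value of 2.18 ± 0.79 did not pass (adjusted p = 0.075), but did with the replicate block (adjusted p = 3.7e-07) and without the libraries numbered 4 (3.16 ± 0.11, adjusted p = 7.9e-16). Without LPS replicate 4 alone it was 3.92 (adjusted p = 8.5e-05), and without LPS+Dex replicate 4 alone 1.41 (adjusted p = 0.2).

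PTX3 (chr3:157436850-157443633), a soluble pattern recognition molecule, had RNA of 12.4, 12, 12.1 and 10.5 CPM with vehicle, 56.9, 54.6, 51.1 and 68.6 with LPS and 132, 134, 144 and 146 with LPS+Dex. Its footprint level was 42.1, 46, 44.4, 42.9 and 44.1 CPM with vehicle, 204, 205, 188, 515 and 245 with LPS and 564, 556, 600.2, 1763 and 608 with LPS+Dex. Its vehicle footprints varied little, replicate 4 stood above the rest with LPS and LPS+Dex, and no groups overlapped. It rose by 2.64 ± 0.37 (adjusted p = 2.6e-05) and 1.59 ± 0.35 (adjusted p = 0.0051). ANGPTL4 (chr19:8364155-8374370), an inhibitor of lipoprotein lipase, went from 2.36 ± 0.542 to 12.1 ± 2.19 and 76.5 ± 8.87 CPM in RNA. Footprints were 3.59, 3.03, 2.86, 22.6 and 1.57 CPM with vehicle, 16.6, 16.6, 14.6, 23.7 and 21.7 with LPS and 105, 105, 97.8, 429.6 and 105 with LPS+Dex. Vehicle replicate 4 lay within the LPS range, and the LPS value of 1.53 ± 0.66 did not pass (adjusted p = 0.065). It passed with the replicate block (adjusted p = 2.6e-05), without vehicle replicate 4 (2.76, adjusted p = 0.00025), without LPS+Dex replicate 4 (1.55, adjusted p = 0.026) and without all libraries numbered 4 (2.66 ± 0.16, adjusted p = 9.6e-13). With LPS+Dex over LPS it rose by 3.18 ± 0.67 (adjusted p = 0.0036).

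IL15, which sustains natural killer and memory T cells, EDN1, the vasoconstrictor endothelin-1, and PDGFB, a growth factor for mesenchymal cells, had mean RNA of 5.04 to 20.6 CPM with LPS+Dex. IL15 and EDN1 rose in both steps. Vehicle footprint libraries held 0 to 4 counts of IL15 and 0 to 6 of PDGFB. Both could thus pass the filter on low counts through their treated libraries alone. PDGFB rose with LPS, and its LPS+Dex over LPS value of 0.70 ± 0.42 did not pass (adjusted p = 0.32, and 0.036 with the replicate block).

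Letters of a TATA box, read on either strand, lie just upstream of the starts of the secreted factors FSTL3, CCN2 and ANGPTL4, given as examples. They are shown because a TATA box can position the start of transcription. The letters TATAAA, on either strand, were found in the promoter windows (250 bases before to 50 after the start, RefSeq, GRCh38.p14) of 11 of 57 members with an entry (19.3%) and of 14% of 27305 genes. Counted by window, since a gene can have several listed starts, the shares were 11.8% for the members and 11.5% for all genes. The bases upstream of the start are given 5′ to 3′ on the gene's strand, with the matched letters in capitals. Each line ends at the base before the start.
FSTL3, chr19:676333-676391 (forward strand): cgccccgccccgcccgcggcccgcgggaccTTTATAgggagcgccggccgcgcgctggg
CCN2, chr6:131951373-131951434 (reverse strand): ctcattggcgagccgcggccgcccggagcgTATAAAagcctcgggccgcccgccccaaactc
ANGPTL4, chr19:8364096-8364154 (forward strand): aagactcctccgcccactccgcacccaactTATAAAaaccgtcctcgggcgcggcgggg
The capitals begin 29 bases before the start of FSTL3 and ANGPTL4 and 32 before that of CCN2, and in FSTL3 they read TTTATA, the other strand's TATAAA. A match of letters is a description and says nothing of use in these cells. The other members with a match were EDN1, F3, FBLN5, FLT1, NR5A2, PDE8A, RNF144B and TMOD1. Their RNA ratios of Dex ran from 1.51 (PDE8A) to 8.44 (F3), so a match was not confined to large ratios. Nor did every large ratio go with a match. GRAMD2B (10.4), CNKSR3 (9.36), CCNA1 (7.99) and SEC14L2 (6.89) had none, and their ratios exceeded that of ANGPTL4 (6.11).

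Receptors numbered 6: S1PR3, FLT1, PDGFRA, CLEC4E, ROS1 and OR2B11. Of the 5 tested in footprints, 4 rose with LPS and 5 rose further with LPS+Dex, and 5 and 5 did so without the libraries numbered 4. CLEC4E (Mincle, chr12:8533275-8540905) is a receptor for mycobacterial glycolipid. Its RNA was 0.587, 0.701, 0.376 and 0.277 CPM with vehicle, 3.86, 5.27, 2.89 and 4.59 with LPS and 16.4, 18.9, 15.7 and 21.8 with LPS+Dex. In footprints it was at 0.617, 0.687, 0.716, 0.0688 and 0.449 CPM with vehicle, 5.24, 4.77, 6.98, 6.84 and 5.74 with LPS and 23.1, 24.9, 22.4, 27.7 and 20.8 with LPS+Dex. No groups overlapped in either assay, and it rose by 3.46 ± 0.26 (adjusted p = 3.9e-08) and 2.01 ± 0.21 (adjusted p = 6.4e-06). The vehicle footprint libraries held only 17, 17, 19, 1 and 14 counts of CLEC4E. Its LPS value was 3.21 ± 0.17 without the libraries numbered 4.

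FLT1 (chr13:28300346-28495128), the VEGF receptor through which monocytes migrate, went from 1.27 ± 0.569 to 13.3 ± 2.62 and 37.2 ± 4.48 CPM in RNA. Its footprints were 1.92, 2.46, 2.9, 9.56 and 2.95 CPM with vehicle, 26.2, 26.2, 31.6, 87.4 and 25.8 with LPS and 95.4, 90.3, 81.7, 277 and 94.9 with LPS+Dex. Replicate 4 was the highest of all 3 groups by a wide margin, and LPS replicate 4 reached into the LPS+Dex range. The footprints rose by 3.37 ± 0.55 with LPS (adjusted p = 0.00011) and 1.70 ± 0.50 with LPS+Dex over LPS (adjusted p = 0.028, and 2.1e-10 with the replicate block). The latter call ended when any 1 of LPS replicates 1, 2, 3 or 5 or LPS+Dex replicate 4 was left out (1.19 to 1.62, adjusted p = 0.068 to 0.073).

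S1PR3 (chr9:88990863-89005155), a receptor for sphingosine 1-phosphate, had RNA of 3.28 ± 1.26, 16 ± 4.32 and 47.7 ± 10.3 CPM. Its footprints were 4.79, 5.29, 3.84, 31.9 and 3.24 CPM with vehicle, 15.6, 17.4, 18.3, 53.9 and 22.8 with LPS and 85.7, 79.5, 72.7, 195 and 69.2 with LPS+Dex. Vehicle replicate 4 exceeded 4 of the 5 LPS libraries, while no LPS library reached an LPS+Dex library. The LPS value of 1.43 ± 0.62 did not pass (adjusted p = 0.067). It passed with the replicate block (adjusted p = 3.7e-06), without vehicle replicate 4 (2.59, adjusted p = 0.00018) and without LPS+Dex replicate 4 (1.44, adjusted p = 0.048). With LPS+Dex over LPS it rose by 1.97 ± 0.61 (adjusted p = 0.038, and 7.4e-07 with the block), a call that ended when any 1 of LPS replicates 1, 2, 3 or 5 or LPS+Dex replicates 1 or 4 was left out (1.58 to 2.03, adjusted p = 0.053 to 0.092).

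PDGFRA, a receptor for platelet-derived growth factors, and ROS1, a receptor tyrosine kinase, rose in both steps. ROS1 had 0 to 3 vehicle footprint counts per library, so it could pass the filter on low counts through its treated libraries alone. OR2B11, an olfactory receptor gene (chr1:247449118-247458104), had RNA of 3.52, 2.35, 3.9 and 3.22 CPM with vehicle, 10.3, 12.9, 10.8 and 9.08 with LPS and 22.9, 23.6, 18.3 and 26.4 with LPS+Dex. The RNA groups did not overlap. Its footprints were at 0 in 12 of the 15 libraries, and the other 3 held 1, 2 and 6 counts, so no footprint fold is given.

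Signalling proteins, with 17 members, formed the largest named role, among them TP53BP2, TNIP2, PTPN1, PDE8A, MDM2, CNKSR3, ARHGEF10L, DDIT4, RNF144B, OPTN, MARK1, PSTPIP2, CCNA1, LONRF1, CDC37L1 and APCDD1. All 17 rose with LPS in footprints and 15 rose further with LPS+Dex, PDE8A and MARK1 being those that did not pass. Without the libraries numbered 4 all 17 passed both. TP53BP2 (ENSG00000143514, chr1:223779893-223845947) encodes ASPP2, a partner of p53 that favours apoptosis. Its RNA was 213, 182, 226 and 213 CPM with vehicle, 587, 525, 587 and 708 with LPS and 1595, 1538, 1623 and 1515 with LPS+Dex. In footprints it was at 107, 113, 108, 87.4 and 99.8 CPM with vehicle, 297, 289, 287, 239 and 349 with LPS and 798, 809, 800.0, 633 and 839.7 with LPS+Dex. The groups lay well apart in both assays, with footprint replicate 4 lowest in each. It rose by 1.51 ± 0.11 (adjusted p = 2.2e-08) and 1.41 ± 0.11 (adjusted p = 2.3e-07).

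TNIP2 (chr4:2741648-2756336) encodes ABIN-2, which binds A20 and restrains NF-kB signalling. Its RNA was 65.2, 62.7, 52.5 and 54.3 CPM with vehicle, 175, 189, 169 and 168 with LPS and 374, 382, 357 and 392 with LPS+Dex. Footprints were 17.6, 13.2, 15.3, 9.7 and 12.7 CPM with vehicle, 39.3, 41.8, 38.6, 42.4 and 60.6 with LPS and 104, 107, 100.4, 90.7 and 107 with LPS+Dex. No groups overlapped, LPS replicate 5 being the highest of its group. It rose by 1.70 ± 0.15 (adjusted p = 2.3e-07) and 1.19 ± 0.15 (adjusted p = 3e-05). ARHGEF10L, an activator of small GTPases, went from 21.1 ± 1.24 to 36.9 ± 9.93 and 94.4 ± 12.8 CPM in footprints. Its LPS range began within the vehicle range at replicate 4, and it rose by 0.81 ± 0.16 (adjusted p = 0.00058) and 1.35 ± 0.16 (adjusted p = 2.2e-05).

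CCNA1, cyclin A1, is a cell cycle gene of germ and leukaemic cells. Its RNA was 0.629, 0.289, 0.491 and 0.588 CPM with vehicle, 1.64, 2.22, 2.11 and 2.55 with LPS and 17.9, 21.4, 22.2 and 20.7 with LPS+Dex. Footprint values were 0.0725, 0.202, 0.0753, 1.72 and 0.128 CPM with vehicle, 1.23, 1.09, 0.856, 4.13 and 1.93 with LPS and 14.5, 12.4, 14.6, 67.3 and 13.8 with LPS+Dex. Replicate 4 was the highest footprint library of each group. The vehicle footprint libraries held 2, 5, 2, 25 and 4 counts, so CCNA1 could pass the filter on low counts through its treated libraries alone. The LPS+Dex over LPS rise was 3.77 ± 0.70 (adjusted p = 0.0014). The LPS rise of 2.40 ± 0.89 (adjusted p = 0.033) ended when any 1 of vehicle replicates 1, 2, 3 or 5 or LPS replicates 4 or 5 was left out (1.95 to 2.38, adjusted p = 0.053 to 0.087), and was 3.87 without vehicle replicate 4 (adjusted p = 0.0027).

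MDM2 (chr12:68808172-68850686), the ubiquitin ligase that limits p53, had RNA of 18.4, 17.2, 27.7 and 25.5 CPM with vehicle, 48.6, 34.9, 50.4 and 58.7 with LPS and 118, 112, 113 and 105 with LPS+Dex. Its footprints were 17.6, 22.4, 20.6, 21.6 and 20.1 CPM with vehicle, 48.7, 49.7, 52.1, 59.2 and 54.3 with LPS and 64.9, 69, 61.8, 61.7 and 67.9 with LPS+Dex. Footprints rose by 1.37 ± 0.08 with LPS (adjusted p = 2.8e-09) and by 0.30 ± 0.08 with LPS+Dex over LPS (adjusted p = 0.014), where its RNA ratio was 2.31. The footprint change relative to RNA in the Dex step was -0.92 ± 0.17 (log2 ± SE), given with no test. MDM2 and another member, CPM, overlap by 8490 bases on opposite strands. The strand setting of the counting is not given in the sources used here, so how reads in that overlap were assigned is uncertain.

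PDE8A, a cyclic AMP phosphodiesterase, rose with LPS by 1.41 ± 0.22. Its LPS+Dex over LPS value of 0.38 ± 0.21 did not pass (adjusted p = 0.27), and passed with the replicate block (adjusted p = 0.0073). For MARK1, a microtubule-affinity kinase, that value was 0.99 ± 0.41 (adjusted p = 0.12, and 0.022 with the replicate block). MARK1 had 0 to 14 vehicle footprint counts per library, so it could pass the filter on low counts through its treated libraries alone. Among the other signalling members, RNF144B, a ubiquitin ligase, had the largest LPS rise (5.49), and CNKSR3, a scaffold of mineralocorticoid-responsive signalling, the largest Dex rise (2.83). DDIT4, an inhibitor of mTORC1, rose by 2.33 and 0.96, OPTN, an autophagy receptor, by 1.51 and 0.61, and PTPN1, a phosphatase of JAK kinases and the insulin receptor, by 1.67 and 1.02. Values of RNF144B, CNKSR3, DDIT4, OPTN and PTPN1 were picked out after they were seen.

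Transcription regulators numbered 8: CEBPD, ELL2, PLAGL2, TCF7L1, JADE2, SIX2, NR5A2 and TBX21. In footprints 7 rose with LPS (TBX21 did not pass, adjusted p = 0.085, and 0.0034 with the replicate block) and 7 with LPS+Dex over LPS (ELL2 did not), and 8 and 8 did so without the libraries numbered 4. CEBPD (chr8:47736913-47738164), an acute-phase factor of the C/EBP family, had RNA of 18.8, 18.5, 15.6 and 12.3 CPM with vehicle, 51.6, 68.5, 55 and 34.6 with LPS and 112, 139.8, 113 and 155 with LPS+Dex. In footprints it was at 61.2, 62, 60.4, 53.8 and 58.2 CPM with vehicle, 160.0, 175, 135, 129 and 201 with LPS and 358, 375, 443, 346 and 481 with LPS+Dex. No groups overlapped, and it rose by 1.44 ± 0.12 (adjusted p = 1.9e-07) and 1.32 ± 0.12 (adjusted p = 2.1e-06). ELL2 (chr5:95885098-95961851), a transcription elongation factor, rose with LPS by 1.41 ± 0.26 (adjusted p = 0.00037). Its footprints were 38.9 to 82.8 CPM with LPS and 66.1 to 117 with LPS+Dex, overlapping through LPS replicate 4. The LPS+Dex over LPS value of 0.67 ± 0.26 did not pass (adjusted p = 0.097), and passed with the replicate block (adjusted p = 1.8e-07), without LPS replicate 4 (0.94, adjusted p = 0.0078) and without vehicle replicate 4 (0.67, adjusted p = 0.046).

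PLAGL2, a zinc finger activator, rose by 1.59 ± 0.19 and 1.25 ± 0.17 (adjusted p = 4.2e-06 and 0.00011), from 2.32 ± 0.571 to 6.89 ± 1.78 and 16.4 ± 1.27 CPM in footprints. TCF7L1, a factor of the Wnt pathway, was sparse in footprints, with 0.179 ± 0.14, 0.739 ± 0.315 and 2.11 ± 0.751 CPM, and its RNA had 1.34 ± 0.119, 5.05 ± 0.488 and 20.9 ± 1.26. It rose by 1.91 ± 0.50 (adjusted p = 0.0044) and 1.51 ± 0.41 (adjusted p = 0.018), the latter ending without LPS+Dex replicate 1 or 5 (1.40 and 1.34, adjusted p = 0.053 for each). With 0 to 10 vehicle footprint counts per library, TCF7L1 could pass the filter on low counts through its treated libraries alone. The T cell factor TBX21 (T-bet), the nuclear receptor NR5A2 and the homeobox factor SIX2 had mean RNA below 1 CPM with vehicle and of 7.44 to 14 CPM with LPS+Dex. Vehicle footprint libraries held 1 to 8 counts of SIX2 and 3 to 16 of TBX21. Both could thus pass the filter on low counts through their treated libraries alone, and their LPS values are imprecise. JADE2 belongs to a histone acetyltransferase complex.

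Matrix and protease genes numbered 7: COL4A1, COL4A2, LAMB1, LAMA5, F3, CPM and FBLN5. In footprints 4 rose with LPS and 4 with LPS+Dex over LPS, and all 7 in both steps without the libraries numbered 4 or with the replicate block. CPM (ENSG00000135678, chr12:68842197-68963469) encodes carboxypeptidase M, a membrane enzyme that trims basic residues from peptides and marks maturing macrophages. Its RNA was 21, 16.6, 30.7 and 30.2 CPM with vehicle, 58.2, 40.3, 59.6 and 78.6 with LPS and 405, 323, 412 and 298 with LPS+Dex. Footprints were 67.7, 74.1, 76.1, 74.4 and 87.4 CPM with vehicle, 165, 165, 162, 317 and 180.2 with LPS and 1395, 1531, 1397, 3412 and 1450.1 with LPS+Dex. All groups lay apart, and replicate 4 was highest with LPS and LPS+Dex. It rose by 1.39 ± 0.27 (adjusted p = 0.00046) and 3.22 ± 0.28 (adjusted p = 1.2e-06).

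F3 (chr1:94529173-94541759), tissue factor, starts the coagulation cascade. Its RNA was 5.92, 7.39, 7.14 and 6.19 CPM with vehicle, 22.2, 22.4, 21.8 and 35.9 with LPS and 223, 230.2, 220.4 and 205 with LPS+Dex. In footprints it was at 4.61, 3.43, 4.56, 9.08 and 3.82 CPM with vehicle, 11.8, 13.5, 14.3, 76.3 and 20.0 with LPS and 127, 117, 122, 576 and 121 with LPS+Dex. LPS replicate 4 was the highest LPS library in both assays, and no groups overlapped. It rose by 2.44 ± 0.64 with LPS (adjusted p = 0.0046, and 1.58 without LPS replicate 4) and 2.97 ± 0.63 with LPS+Dex over LPS (adjusted p = 0.0036).

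The basement membrane genes were not alike. LAMB1 (chr7:107923799-108003161), a laminin beta chain, went from 14.5 ± 2.28 to 63.2 ± 6.01 and 229 ± 8.19 CPM in RNA. Its footprints were 3.95, 3.88, 5.42, 7.77 and 3.88 CPM with vehicle, 17.3, 15.1, 15, 16.6 and 16.7 with LPS and 67.5, 64.3, 65.5, 108 and 64.2 with LPS+Dex. They rose by 1.72 ± 0.20 (adjusted p = 5.4e-06) and 2.20 ± 0.20 (adjusted p = 1.6e-06) with no overlap. COL4A2 (chr13:110307284-110513209), a chain of collagen IV, had RNA of 52.4, 48.3, 77.6 and 70.5 CPM with vehicle, 198, 193, 207 and 201 with LPS and 357, 339, 344 and 375 with LPS+Dex, with no overlap. Its footprints were 105, 111, 108, 374 and 116 CPM with vehicle, 158, 165, 143, 459 and 181 with LPS and 234, 249.8, 259, 885 and 299 with LPS+Dex. Replicate 4 was more than 2-fold above all others of its group, so the groups overlapped. Neither the LPS value of 0.45 ± 0.49 (adjusted p = 0.47) nor the LPS+Dex over LPS value of 0.80 ± 0.49 (adjusted p = 0.33) passed. Both passed with the replicate block (adjusted p = 3.6e-06 and 1.5e-07) and without the libraries numbered 4 (0.55 ± 0.08 and 0.69 ± 0.08). LPS+Dex over vehicle had an adjusted p of 0.051, and of 8.9e-11 with the block. Leaving out LPS replicate 4 alone turned the LPS value to -0.01.

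COL4A1 and COL4A2 lie head to head on chromosome 13, and the 126 bases between their starts are shown in full because both genes would be read from this stretch. It is given on the COL4A2 strand, 5′ to 3′, with no part in capitals.
COL4A1 to COL4A2, chr13:110307158-110307283 (forward strand): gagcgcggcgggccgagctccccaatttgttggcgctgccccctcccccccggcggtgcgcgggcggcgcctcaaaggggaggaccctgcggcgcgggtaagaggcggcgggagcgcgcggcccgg
The partner COL4A1, named here as the neighbour and after its values were seen, had RNA of 25.2 ± 9.02, 123 ± 20.7 and 211 ± 15.2 CPM. Its RNA ratios were 4.79 and 1.71, beside 3.19 and 1.77 for COL4A2. In footprints COL4A1 had 1.08 ± 0.49 (adjusted p = 0.078) and 1.16 ± 0.49 (adjusted p = 0.13), neither passing, and both passed with the replicate block (adjusted p = 1.2e-08 and 3.5e-07). LAMA5, a laminin alpha chain, rose with LPS and not with LPS+Dex over LPS (0.93 ± 0.48, adjusted p = 0.23, and 0.00056 with the replicate block). FBLN5, an elastic fibre protein, rose with LPS+Dex over LPS and not with LPS (0.83 ± 0.37, adjusted p = 0.071, and 0.0008 with the replicate block).

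The glucocorticoid receptor binds pairs of the hexamer AGAACA and its reverse complement TGTTCT set 3 bases apart. The full pair was found in no member's promoter window and in 1 of the 27305 genes (0.00366%). A single hexamer, on either strand, was found in 12 of 57 members with an entry (21.1%) and in 17.5% of genes. A gene with several listed starts has a window for each, and counted by window the hexamer was in 13 of 93 for the members (13.98%) and in 14.79% of all 35116. The hexamer is shown for CNKSR3 and PTX3, where it lies upstream of the annotated gene start and which had RNA ratios of 9.36 and 2.39 with Dex, with up to 30 bases on each side, 5′ to 3′ on the gene's strand and the hexamer in capitals.
CNKSR3, chr6:154510872-154510935 (reverse strand): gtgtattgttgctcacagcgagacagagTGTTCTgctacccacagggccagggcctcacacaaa
PTX3, chr3:157436600-157436640 (forward strand): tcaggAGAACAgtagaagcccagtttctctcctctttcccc
The hexamers begin 222 and 245 bases before the start. ARHGEF10L, B3GNT5, CLEC4E, CPM, JADE2, NR5A2, RNF144B, SEPTIN4, SNX11 and TMOD1 also held one. The AP-1 letters TGACTCA or TGAGTCA were in 5 members (8.77%; ARHGEF10L, F3, MDM2, NR5A2 and SEPTIN4) and 6.05% of genes, or 6.45% of the members' windows and 4.95% of all. The kB letters GGG, any 2 bases and TTTCC, on either strand, were in 3 members (5.26%; OPTN, PANX1 and PDE8A) and 2.33% of genes, or 4.30% of the members' windows and 1.91% of all. These windows cover little of a gene's regulatory DNA, and absence of the letters says nothing of the factor.

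Metabolic enzymes and lipid-binding proteins numbered 8: SAT1, UGCG, PXYLP1, B3GNT5, CD38, IDO2, SEC14L2 and QPCT. All 8 rose with LPS in footprints and 6 rose further with LPS+Dex (7 without the libraries numbered 4). SAT1 (chrX:23783173-23786210), the rate-limiting enzyme of polyamine breakdown, had RNA of 105, 119, 80.3 and 101 CPM with vehicle, 536, 619, 504 and 584 with LPS and 872, 872, 848 and 1119 with LPS+Dex. Its footprints were 3.84, 4.48, 3.73, 7.64 and 3.91 CPM with vehicle, 26.8, 27.6, 26.3, 62.3 and 29 with LPS and 36.6, 35.4, 40.4, 80.0 and 43.2 with LPS+Dex. The RNA groups lay apart, and footprints overlapped between LPS and LPS+Dex through LPS replicate 4. Footprints rose by 2.89 ± 0.33 with LPS (adjusted p = 3.4e-06), and the LPS+Dex over LPS value of 0.45 ± 0.30 did not pass (adjusted p = 0.37, and 9.4e-05 with the replicate block). Without LPS replicate 4 it was 0.79 (adjusted p = 0.039), and without LPS+Dex replicate 4 it was 0.17 (adjusted p = 0.7). SAT1 had few footprints for its mRNA in every treatment, with footprint CPM over RNA CPM of 0.0466, 0.0613 and 0.0508, against medians of 0.733, 0.720 and 0.736 over 11944 genes. The members' medians were 0.688, 0.789 and 0.637.

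PXYLP1, a phosphatase of proteoglycan synthesis, had footprints of 1.05, 1.33, 1.51, 2.75 and 2.63 CPM with vehicle, 4.04, 5.02, 3.78, 6.0 and 4.72 with LPS and 27.9, 27.5, 29.7, 42.7 and 26.8 with LPS+Dex. No groups overlapped, and it rose by 1.37 ± 0.25 (adjusted p = 0.00032) and 2.72 ± 0.24 (adjusted p = 1.1e-06). UGCG, which makes glucosylceramide, rose by 1.06 ± 0.20 and 1.15 ± 0.20 (adjusted p = 0.0004 and 0.00075), from 24.5 ± 7.25 to 50.8 ± 9.44 and 112 ± 26.3 CPM. QPCT, glutaminyl cyclase, rose by 1.16 ± 0.18 and 1.07 ± 0.17 (adjusted p = 5.8e-05 and 0.00046), from 19.1 ± 2.31 to 42.5 ± 10.3 and 89 ± 21.6 CPM. CD38, an NAD-consuming surface enzyme, the glycosyltransferase B3GNT5 and the lipid carrier SEC14L2 rose in both steps. IDO2, a tryptophan-degrading enzyme, had 0 or 1 count in each vehicle footprint library, and its LPS+Dex over LPS value did not pass.

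The remaining 17 were RILPL2, GRAMD2B, PANX1, SMIM3, RDX, HIP1R, KCNG1, SNX11, EMP2, DNAAF1, TMEM64, SHROOM3, TMOD1, ANKRD33B, SEPTIN4, SRSF12 and the unnamed gene ENSG00000288706. In footprints 16 rose with LPS (SEPTIN4 did not pass) and 13 with LPS+Dex over LPS, and without the libraries numbered 4 the counts were 16 and 14 of 16 tested. GRAMD2B (ENSG00000155324, chr5:126360120-126494364), a lipid-binding domain protein, had a steep Dex step. Its RNA was 5.79, 6.4, 6.68 and 6.33 CPM with vehicle, 20.7, 22.1, 25.4 and 41 with LPS and 316, 281, 306 and 257 with LPS+Dex. The footprint libraries gave 2.39, 2.63, 2.52, 2.82 and 3.08 CPM with vehicle, 10.4, 13.5, 13.9, 20.6 and 19.5 with LPS and 176, 179, 165, 186 and 188 with LPS+Dex. Groups did not overlap, LPS RNA replicate 4 was above the other LPS libraries, and LPS footprint replicates 4 and 5 were above the rest of theirs. It rose by 2.54 ± 0.17 (adjusted p = 1e-08) and 3.52 ± 0.16 (adjusted p = 4.5e-09).

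RILPL2, an effector of Rab GTPases, changed by small and even steps. Its RNA was 107, 108, 92.6 and 83.4 CPM with vehicle, 219, 230.5, 215 and 202 with LPS and 354, 361, 319 and 359.9 with LPS+Dex. Footprints were 75.2, 68.5, 69.4, 67.8 and 71.1 CPM with vehicle, 142, 136, 127, 141 and 149.9 with LPS and 218, 206, 231, 238 and 216 with LPS+Dex. It rose by 0.99 ± 0.07 (adjusted p = 1.2e-08) and 0.67 ± 0.07 (adjusted p = 2.8e-06), with no overlap. SMIM3, a small membrane protein, rose by 1.08 ± 0.14 and 1.56 ± 0.14 (adjusted p = 1.2e-05 and 1.3e-06). PANX1, a channel that releases ATP, had footprints of 79 ± 36.8, 200.2 ± 84.4 and 455 ± 215 CPM, with replicate 4 more than 2-fold above the rest in each group. It rose by 1.35 ± 0.34 (adjusted p = 0.004) and 1.18 ± 0.34 (adjusted p = 0.025, and 1.3e-10 with the replicate block), the latter ending without any 1 of LPS replicates 1, 2, 3 or 5 or LPS+Dex replicate 4 (0.83 to 1.12, adjusted p = 0.06 to 0.067). SNX11, a sorting nexin, rose with LPS by 1.42 ± 0.16. Its Dex rise of 0.47 ± 0.15 (adjusted p = 0.043, and 0.0046 with the block) ended in 12 of the 15 leave-one-out fits (0.37 to 0.50, adjusted p = 0.057 to 0.12), all but those without vehicle replicate 4, LPS replicate 3 or LPS+Dex replicate 4. It also ended with DESeq2 size factors (adjusted p = 0.054) and with no filter on low counts (adjusted p = 0.063).

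ENSG00000288706 had the smallest Dex value in footprints. Its RNA was 4.15, 4.87, 3.96 and 3.7 CPM with vehicle, 19.9, 23.3, 20.0 and 15.6 with LPS and 36.1, 33.5, 19.7 and 35.4 with LPS+Dex. In footprints it was at 3.74, 3.43, 3.8, 4.47 and 3.82 CPM with vehicle, 20.5, 20.5, 20.6, 25.6 and 15 with LPS and 22.1, 20.6, 24.9, 26.7 and 21.1 with LPS+Dex. LPS+Dex RNA replicate 3 lay within the LPS range, and the footprint groups overlapped. The LPS rise was 2.42 ± 0.14 (adjusted p = 2.2e-09), and the LPS+Dex over LPS value of 0.17 ± 0.13 passed neither here (adjusted p = 0.44) nor with the replicate block (adjusted p = 0.12). Without LPS replicate 5 it was 0.08, without LPS+Dex replicate 4 it was 0.11, and without LPS replicate 4 it was 0.27. DNAAF1, a cilium assembly factor named here after its values were seen, had 0 to 5 vehicle footprint counts per library, so it passed the filter on low counts through its treated libraries and no fold is given for LPS. Its LPS+Dex over LPS value of 1.04 ± 0.38 did not pass (adjusted p = 0.075), and passed with the replicate block (adjusted p = 0.00098).

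**Figure D3:**
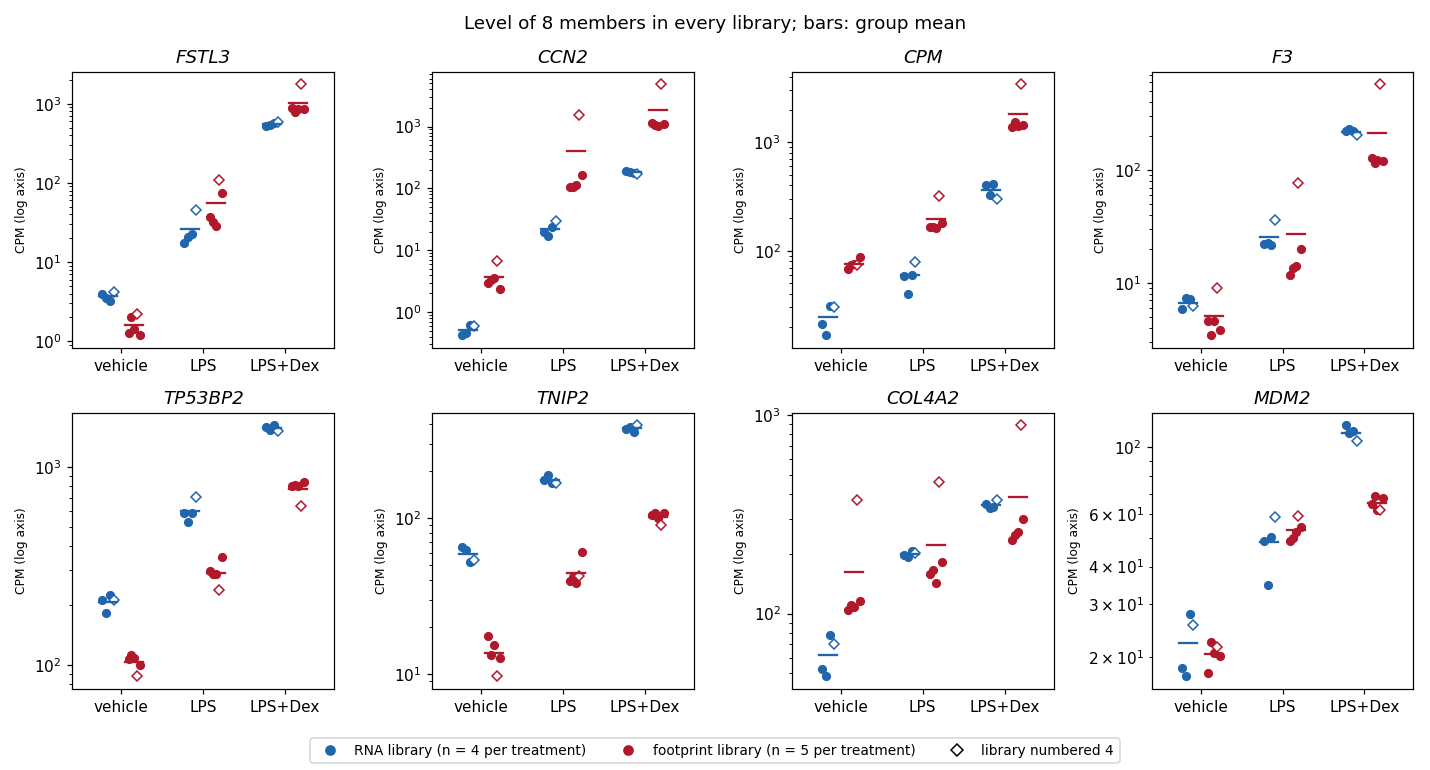
Level of 8 members in every library, in CPM on a log axis, with RNA in blue (n = 4 per treatment), footprints in red (n = 5), bars at the group mean and open diamonds for the libraries numbered 4. TP53BP2 and TNIP2 step up in tight groups, CCN2, F3 and COL4A2 footprints have a high library 4, and MDM2 footprints rise less than its RNA from LPS to LPS+Dex.

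Among the members, the footprint libraries numbered 4 lay above their groups more often in those that encode secreted or membrane proteins. On the scale of log2(CPM + 0.5), library 4 minus the mean of the other 4 libraries had a median of 0.43 with vehicle, 0.73 with LPS and 0.99 with LPS+Dex over 30 members that encode secreted or membrane proteins. Of these, 24, 25 and 28 lay above 0. Over the other 39 members tested the medians were -0.01, -0.20 and -0.18, with 19, 18 and 15 above 0. Over all 12197 genes tested the medians were -0.03, -0.05 and -0.04. The 2 classes overlapped, with LPS+Dex values from -0.58 to 2.24 over the 30 members and from -1.19 to 2.25 over the 39. The members were sorted into these classes after values were seen, and this carries no test. All genes were not sorted in this way. The part of this library difference in the size of the footprint changes was not tested, while the counts of calls without those libraries are given above.

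**Figure D4:**
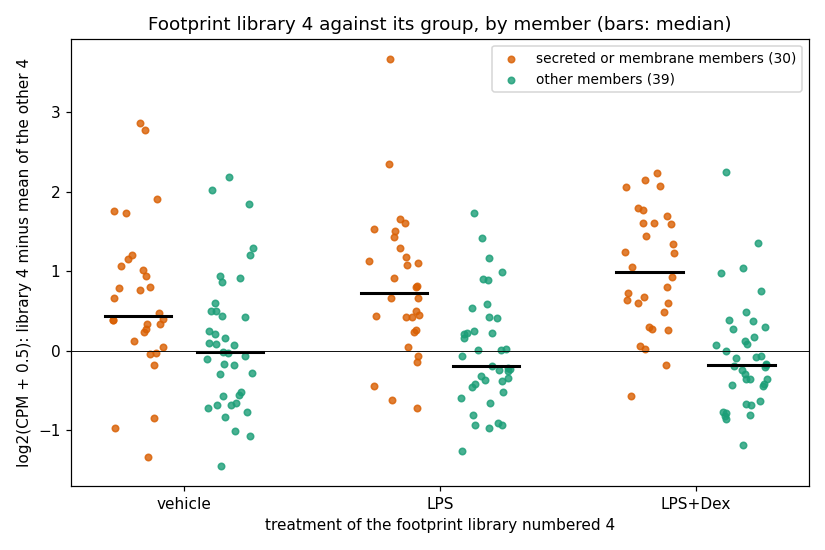
Deviation of the footprint library numbered 4 from the mean of the other 4 libraries of its treatment, as a difference of log2(CPM + 0.5), for 30 members encoding secreted or membrane proteins (orange) and 39 other members (green). Points are genes and bars are medians, which are 0.43, 0.73 and 0.99 in orange and -0.01, -0.20 and -0.18 in green.

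An RNA library of the LPS group also stood apart in the genes with the steepest Dex step. FKBP5, a sensitive glucocorticoid target that is no member, was at 160.3 CPM in LPS RNA replicate 4, against 52.6 to 71.8 in the other LPS libraries and 1422 to 1846 with LPS+Dex. LPS RNA replicate 4 was the highest LPS library in 12 of the 13 members whose RNA ratio of Dex was at least 5, in 29 of the other 57, and in 3247 of 12197 genes. Its median deviation from the other LPS libraries was 0.43 on the log2 scale in the 13 members, 0.17 in the other 57 and 0.02 over all genes. The ratio that set the 13 apart includes this library in its LPS mean, and its part in their ratios was not tested. In footprints FKBP5 was at 155.2 CPM in LPS replicate 5, against 57.5 to 80.0 in the others, and that library was above the mean of its group in 9 of the 13 members, 39 of the other 57 and 6037 of 12197 genes. It was the highest in 1 of the 13, 20 of the 57 and 2502 of all genes, and its median deviation was 0.17, 0.11 and -0.003 on the log2 scale. Without LPS RNA replicate 4 the rule gave 70 genes, of which 66 were shared with those described. With the libraries numbered 4 and LPS footprint replicate 5 left out together, 68 members were called higher with LPS and 66 with LPS+Dex over LPS. Over all 12366 genes tested in that fit the counts were 3878 and 2036.

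The genes nearest to the thresholds in RNA show where the rule drew its lines. Just inside the LPS threshold were UGCG (2.02), LONRF1 (2.03), KCNG1 (2.03), PDGFRA (2.06) and DNAAF1 (2.11), and just outside were RBM19 (1.99), AP5B1 (1.99), TFPI (1.96), RASSF4 (1.93) and TTC39A (1.90). For Dex, SEPTIN4 (1.51), PDE8A (1.51), ELL2 (1.52), SNX11 (1.55) and ANKRD33B (1.55) lay inside, and BCAR1 (1.49), PRKD3 (1.48), MFSD2A (1.45), LCP2 (1.44) and NRG2 (1.44) outside. At the level threshold PDGFB (5.04 CPM), SRSF12 (5.56), SEPTIN4 (5.62), IDO2 (6.03) and TBX21 (7.44) lay inside, and CCL14 (3.79 CPM), ERG (3.11), RNF144A (2.91), FXYD6 (2.17) and POU2AF3 (2.09) outside. Of the 5 members nearest the Dex threshold, SNX11 and ANKRD33B passed the footprint test of that step and SEPTIN4, PDE8A and ELL2 did not.

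Some members lie close together in the genome. Besides COL4A1 with COL4A2 and MDM2 with CPM, PTPN1 and KCNG1 are 418414 bases apart on chromosome 20, TBX21 and SNX11 361451 bases apart on chromosome 17, and RILPL2 and HIP1R 546344 bases apart on chromosome 12. Both genes of these last 3 pairs were called higher in the footprints of LPS+Dex over LPS, as were 55 of the 69 members tested. The call of SNX11 was lost in most leave-one-out fits, as given above. How often other genes lie this close was not counted, so nothing is read from these pairs.

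Genes of the pathways to which members belong were counted in footprints as well. Of all 12197 genes tested, 25.4% were called higher and 27.2% lower with LPS (31.5% and 36.0% without the libraries numbered 4), and 9.08% higher and 7.99% lower with LPS+Dex over LPS (16.2% and 15.3%). Counts of a list near these shares say nothing of the list. Of 38 tested glucocorticoid receptor targets, which include ANGPTL4 and CEBPD, 15 rose and 7 fell with LPS, and 23 rose and 2 fell with LPS+Dex over LPS (32 and 5 without the libraries numbered 4). The zinc finger repressor ZBTB16 rose most (5.55 ± 0.58), and the kinase SGK1 fell most (-1.27 ± 0.18). Of 20 NF-kB feedback inhibitors, with TNIP2 among them, 16 rose and 2 fell with LPS, and 4 rose and 7 fell with LPS+Dex (4 and 10). There IRAK3, a brake on TLR signalling, rose by 2.28 ± 0.15 and TNIP3, another A20-binding protein, fell by 2.48 ± 0.17. Medians of the Dex step were 1.06 for receptor targets and -0.23 for feedback inhibitors, beside 0.02 for all genes.

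Growth factors and hormones (34 tested, FSTL3, EDN1, PDGFB and ANGPTL4 among them) had 16 higher and 3 lower with LPS, and 4 higher and 8 lower with LPS+Dex (7 and 17 without the libraries numbered 4). FSTL3 was the one that rose most, and OSM, an IL-6 family cytokine, fell by 2.50 ± 0.71. Matrix, protease and coagulation genes (47 tested, with F3, COL4A1 and COL4A2) had 17 higher and 2 lower with LPS, and 3 higher and 7 lower with LPS+Dex (13 and 18). In this list the matrix glycoprotein THBS1 rose by 4.05 ± 0.44 (by 3.47 without the libraries numbered 4). The protease MMP3 fell by 2.70 ± 0.72 (by 1.78 without them). Among 35 G protein-coupled receptors, with S1PR3, 11 rose and 9 fell with LPS and 7 rose and 8 fell with LPS+Dex (11 and 16). FPR1, a formyl peptide receptor, rose by 3.96 ± 0.50 and the chemokine receptor CCR7 fell by 2.23 ± 0.51. Without the libraries numbered 4 their log2 fold changes were 3.32 and -2.25.

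Of 30 JAK-STAT feedback genes, with PTPN1, 18 rose and 4 fell with LPS and 5 rose and 7 fell with LPS+Dex (5 and 9). PTPN1 itself rose most (1.02 ± 0.13), and the kinase PIM1 fell most (-2.13 ± 0.16). Of 45 kinases and stress signalling genes 20 rose and 7 fell with LPS and 8 rose and 15 fell with LPS+Dex (13 and 18), between SPRY1, a brake on growth factor signalling (5.04 ± 0.49), and the phosphodiesterase PDE4B (-2.05 ± 0.54). Among 32 bZIP and acute-phase factors, with CEBPD, 14 rose and 11 fell with LPS and 4 rose and 11 fell with LPS+Dex (6 and 13), between FOS (1.62 ± 0.22) and ATF3 (-1.77 ± 0.21). Metabolic genes (50 tested, with SAT1 and ANGPTL4) had 17 higher and 12 lower with LPS, and 7 and 10 with LPS+Dex (13 and 18), between PDK4, an inhibitor of pyruvate oxidation (4.50 ± 0.26), and ACOD1, which makes itaconate (-2.56 ± 0.19).

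The other 3 lists held no member. Of 38 other inducible transcription regulators 24 rose and 5 fell with LPS, and 5 rose and 16 fell with LPS+Dex (6 and 20), with ZBTB16 and the Notch target HES4 (-2.23 ± 0.40) at the ends. Of 33 cytokine inhibitors and receptors 15 rose and 6 fell with LPS, and 4 rose and 5 fell with LPS+Dex (8 and 14), with IL27RA (2.25 ± 0.24) and IL18RAP (-1.82 ± 0.45) at the ends. Of 34 survival and apoptosis regulators 23 rose and 3 fell with LPS, and 3 rose and 10 fell with LPS+Dex (8 and 18), with SGMS2 (2.19 ± 0.34) and the death ligand TNFSF10 (-2.05 ± 0.42) at the ends. These values are footprint log2 fold changes ± SE from the edgeR quasi-likelihood test, n = 5 libraries per group, and each named gene was called. Some named genes of the lists had few footprints, so their folds are imprecise. With LPS the mean footprint level was 0.878 CPM for ZBTB16, 0.385 for SPRY1 and 0.213 for FPR1. With LPS+Dex it was 0.563 CPM for OSM and 0.385 for HES4. Outside the receptor targets, the median Dex step of these lists ran from -0.53 in the transcription regulators to 0.02 in the matrix genes.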

How the data were processed

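Ribosome footprints and poly(A) mRNA of PMA-differentiated THP-1 cells were sequenced after vehicle, LPS or LPS+Dex, and the authors deposited raw counts of reads per gene for each library, with no scaling. The submitters' processing notes name DESeq2 1.26.0, featureCounts 2.0.1 and STAR 2.7.10a for either assay, Bowtie2 2.4.5 in addition for footprints, and the build GRCh38/hg38. What each tool did, the annotation, the counted feature and the strand setting are not given there.

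From these counts, CPM on TMM-scaled library sizes were computed, and each assay was fitted with edgeR 4.0.16 in R 4.3.3 (filterByExpr, minimum count 10 and minimum total 15; quasi-likelihood F test, 2-sided; Benjamini-Hochberg over all genes tested). Footprints (15 libraries) and RNA (12) were fitted apart, each with 3 groups sharing 1 spread per gene, and translational efficiency was taken from a fit over both. Members carry no test in RNA or efficiency, since RNA chose them. TMM makes changes relative to the average gene; dividing by total counts alone moved the median gene by -0.25 (RNA) and -0.39 (footprints) on the log2 scale between LPS and vehicle. Samples were grouped by their labelled treatment, no 2 libraries were identical, and the fits were tested on simulated data. Libraries held 11.5 to 30.7 M counts, and depth limits the precision of members with few footprints.

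With treatment means subtracted, correlations over genes between footprint libraries of equal number exceeded 0.1 in 15 of 15 pairs (median 0.362, lowest 0.242), against 35 of 60 pairs of different numbers. Without the libraries numbered 4 this held in 4 of 12 pairs of equal number and 5 of 36 of different numbers. In RNA it held in 7 of 12 pairs of equal number (lowest -0.415) and 13 of 36 of different numbers. The labels do not say what equal numbers share. Values with the replicate number as a block are given where they change a member's footprint call.

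The members, their roles and the gene lists were chosen with earlier results of these data known. Every member is named with its role except 1, which is not reported here but stands in the counts. Values are given for the 4 members of each role with the most RNA with LPS+Dex, the 5 with the largest and the 5 with the smallest footprint change in LPS+Dex over LPS, and the 5 genes on each side of each threshold. Of a list, the called genes with the largest rise and fall are named. Alternatives were other size factors, added constants and filters, DESeq2 1.42.0, the block and leaving out libraries. Promoter sequences are from RefSeq (GRCh38.p14), with 13 members not matched.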

Additional observations from a re-analysis of the deposited data

Results flagged for a closer look

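In a group of 4 or 5 libraries, a value was singled out where its gap to the nearest other library took most of the group's range (Dixon's test at 95%), which chance does in about 1 of 20 groups. Over the 32 members with values in full this was asked of 184 groups in RNA and footprints, and 45 were singled out, 40 of them in a footprint library numbered 4. The levels that follow are CPM, and the cause was not tested.

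With vehicle, footprint replicate 4 stood apart in 12 members: S1PR3 (31.9), FLT1 (9.56), CCN2 (6.6), ANGPTL4 (22.6), COL4A2 (374), F3 (9.08), ELL2 (30.5), SAT1 (7.64), UGCG (37.3), PANX1 (145), CCNA1 (1.72) and PDE8A (2). PDE8A was lower than the rest of its group there, and the other 11 were higher. With LPS, footprint replicate 4 stood apart in 10 members: S1PR3 (53.9), FLT1 (87.4), CCN2 (1530), PTX3 (515), CPM (317), COL4A2 (459), F3 (76.3), ELL2 (82.8), SAT1 (62.3) and PANX1 (351). With LPS+Dex, footprint replicate 4 stood apart in 18 members: S1PR3 (195), FLT1 (277), FSTL3 (1750), CCN2 (4820), PTX3 (1760), ANGPTL4 (430), CPM (3410), COL4A2 (885), LAMB1 (108), F3 (576), ELL2 (117), TP53BP2 (633), SAT1 (80), PXYLP1 (42.7), QPCT (128), PANX1 (839), CCNA1 (67.3) and PDE8A (7.69). TP53BP2 and PDE8A were lower than the rest, and the other 16 were higher.

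The 5 other values stood apart: F3 (35.9) in RNA LPS replicate 4, SAT1 (1120) in RNA LPS+Dex replicate 4, UGCG (27.5) in RNA LPS replicate 2, ENSG00000288706 (19.7) in RNA LPS+Dex replicate 3 and TNIP2 (60.6) in footprint LPS replicate 5.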

How the results depend on the processing

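The number of genes that meet the rule was 59 with total counts only (56 of them shared with the 70), 77 with 0.1 added to the means, 66 with 1 added, and 66 to 73 without any 1 RNA library. Members called in footprints were 62 with LPS, 55 with LPS+Dex over LPS and 68 with LPS+Dex over vehicle. Leaving out 1 footprint library gave 59 to 68, 49 to 57 and 67 to 69, and with the replicate block the counts were 68, 65 and 69. DESeq2 called 59, 51 and 61, its size factors in edgeR gave 62, 54 and 69, and no filter on low counts gave 62, 53 and 67. All of these counts stayed within 1.5 times the value reported. With the block, calls in the Dex step over all genes went from 1108 to 1961. Leaving out 1 footprint library gave 2944 to 3314 all-gene calls with LPS (3102 in the main fit) and 939 to 1238 in the Dex step. DESeq2 called 3457 of 14054 genes with LPS and 1265 of 13714 in the Dex step. Its size factors gave 3239 and 1048 of 12197, and no filter gave 3116 and 1035 of 17678. The member counts are to be read beside these shifts. The footprint log2 fold change of COL4A2 with LPS turned to -0.0107 without LPS replicate 4 and was at most 1.03 (without vehicle replicate 4), and the cause was not tested. In no other footprint value of the 32 members with values in full did the direction change under the alternatives run. Over these members and all alternatives, a call was lost 38 times and gained 32 times, in 12 members. The remaining members were not compared in this way. Among them COL4A1, LAMA5, FBLN5, TBX21, PDGFB, MARK1 and DNAAF1 gained a call with the replicate block, as given above.

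Depth limits the members with few footprints. OR2B11 could not be tested, and IDO2, DNAAF1, SRSF12, ROS1 and IL15 had at most 5 counts in every vehicle footprint library, so their LPS steps are imprecise.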
